A study of Mus musculus with 9 samples.

Results

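The cathepsins are the main proteases of the lysosome. The genes Ctsa, Ctsb, Ctsc, Ctsd, Ctsf, Ctsh, Ctsk, Ctsl, Ctss and Ctsz were taken by their symbols from the count table; the rule that lists them names no measured value, though they were proposed with earlier results of these data known. They are 10 of 53342 genes in the table, and all 10 were among the 12511 genes with enough counts to be tested.

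RNA was sequenced from bone-marrow-derived macrophages, which are cells grown from mouse marrow in culture, after they had taken up homogenised spinal cord, a source of myelin lipid and protein. The marrow came from wild-type C57BL/6J mice of both sexes aged 8 to 12 weeks, and animals were kept apart as biological replicates, per the labels. Cells were given vehicle, rapamycin or Torin-2 for 2 h and then, with the compound still present, homogenate of pooled cords (1% weight per volume) over the next 24 h. There were 3 libraries per group, 9 in total. Rapamycin binds FKBP12 and inhibits part of the output of mTOR complex 1, and Torin-2 blocks the catalytic site of mTOR and so acts on both of its complexes. All 3 groups carried the homogenate, so the values compare compounds within fed cells, and cells without homogenate were not analysed here. The sources used here give no dose for either compound.

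Most cathepsins are papain-like cysteine proteases. They are made as inactive precursors, carried to the lysosome largely by mannose 6-phosphate receptors, and matured there at acid pH. Ctsd is instead an aspartic protease and Ctsa a serine carboxypeptidase. In macrophages they break down proteins taken up by phagocytosis or delivered by autophagy, process antigens and endosomal Toll-like receptors, and can be secreted to cut matrix. mTOR complex 1 at the lysosome holds the MiT/TFE transcription factors, which bind the E-box CACGTG in many lysosomal promoters, in the cytoplasm.

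The libraries held 16116666 to 24044329 counts. Levels are given as CPM, counts scaled to a common library size, after TMM scaling, and differences as log2 fold changes with standard error (SE). A gene was called where edgeR's quasi-likelihood test gave a Benjamini-Hochberg adjusted p below 0.05 over all tested genes. All 8 macrophage markers stood at 1 CPM or more in each group. They summed to 11962 to 16572 CPM with vehicle, 19326 to 20956 with rapamycin and 14915 to 16760 with Torin-2. Against vehicle 5 rose and 2 fell with rapamycin, and 3 rose and 2 fell with Torin-2, beside 50.8% and 65.4% of all tested genes called. The dendritic cell and lymphocyte lists summed to at most 0.451 and 0.374 CPM. Among 9 neutrophil markers Mpo, Ly6g and S100a9 had 0 counts in all 9 libraries and the list summed to 1.52 to 5.02 CPM. The 6 oligodendrocyte markers summed to 480 to 612 CPM with vehicle, 691 to 845 with rapamycin and 365 to 423 with Torin-2. The 6 microglia markers summed to 20.7 to 30.2 CPM with vehicle, 8.47 to 13.7 with rapamycin and 10.1 to 12.0 with Torin-2. Of these, 3 of the 4 tested were lower with each compound against vehicle, beside 32.9% (Torin-2) and 26.2% (rapamycin) of all tested genes. The part of the macrophage, oligodendrocyte and microglia lists in the cathepsin values was not tested.

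Cathepsin transcripts made up a sizeable share of the RNA. With vehicle the 10 genes together took 3.57% ± 0.277 (SD, n = 3) of all counts, with rapamycin 3.59% ± 0.0821, and with Torin-2 2.58% ± 0.0957. Every Torin-2 library lay below every library of the other groups, at 2.47% to 2.66% against 3.29% to 3.84% with vehicle and 3.52% to 3.68% with rapamycin. In summed CPM the values were 34860.4 ± 3481 with vehicle, 37311 ± 809 with rapamycin and 25498 ± 995 with Torin-2. Much of the lower Torin-2 sum was Ctsb, at 19153 CPM in the vehicle mean and 11380 in the Torin-2 mean. Summed per kilobase of exon, Torin-2 (8279 to 8752 CPM per kb) overlapped vehicle (8701 to 10900.5 CPM per kb), with means of 8535 ± 239 and 9769.9 ± 1101, and rapamycin stood at 11179 ± 256. In such bulk samples, fewer cells that express a gene and less of its RNA per cell cannot be told apart.

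Levels of different genes were ranked only per kilobase of merged exon, with lengths and gene positions from GENCODE M21 on GRCm38. In vehicle-treated cells Ctsb (3165 ± 277 CPM per kb) and Ctsd (3114 ± 270 CPM per kb) led with overlapping ranges. Next came Ctss at 1707 ± 345, Ctsz at 945 ± 121, Ctsl at 459 ± 55.4 and Ctsa at 237 ± 42.6 CPM per kb. Ctsh (83.4 ± 6.56), Ctsc (32.9 ± 2.37), Ctsk (24.1 ± 1.91) and Ctsf (0.69 ± 0.036) followed, all in CPM per kb, and below the leading pair no neighbours overlapped. Among 12503 tested genes with an exon length, Ctsb held rank 10 and Ctsd rank 11 in the vehicle mean.

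Torin-2 changed the top of this order, while with rapamycin the first 3 places by mean were as with vehicle. With rapamycin Ctss stood at 3142 ± 243 CPM per kb, its range overlapping that of Ctsd, which in turn overlapped Ctsb, and Ctsa (442 ± 15.1 CPM per kb) stood above Ctsl (376 ± 34.2). With Torin-2 Ctsd (2751 ± 186 CPM per kb) and Ctss (2646 ± 20.2) led with overlapping ranges, Ctsb stood below them at 1881 ± 69.2, and Ctsl was down to 163 ± 21.9. Ctsk (36.7 ± 2.95 CPM per kb) stood above Ctsc (22.2 ± 2.87) with Torin-2 alone, and that pair alone changed places when the length of the principal transcript was used.

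Expressed as shares of the summed CPM per kb, Ctsb held a smaller part of the pool and Ctss a larger part with each compound. Ctsb held 32.5% ± 0.965 with vehicle, 28.9% ± 0.0819 with rapamycin and 22.0% ± 0.21 with Torin-2, and the ranges of the 3 groups did not overlap. With rapamycin the level of Ctsb itself was not lower (3225 ± 80.6 CPM per kb, beside 3165 ± 277 with vehicle), so its smaller share there goes with the higher levels of other members. Ctss held 17.4% ± 1.55 with vehicle, 28.1% ± 1.76 with rapamycin and 31.0% ± 1.11 with Torin-2. The rapamycin and Torin-2 ranges met at their edge, since rapamycin replicate 3 reached 30.1% and Torin-2 replicate 2 stood at 30.0%. The share of Ctsl went from 4.70% ± 0.15 with vehicle to 3.36% ± 0.3 with rapamycin and 1.91% ± 0.204 with Torin-2.

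**Figure D1:**
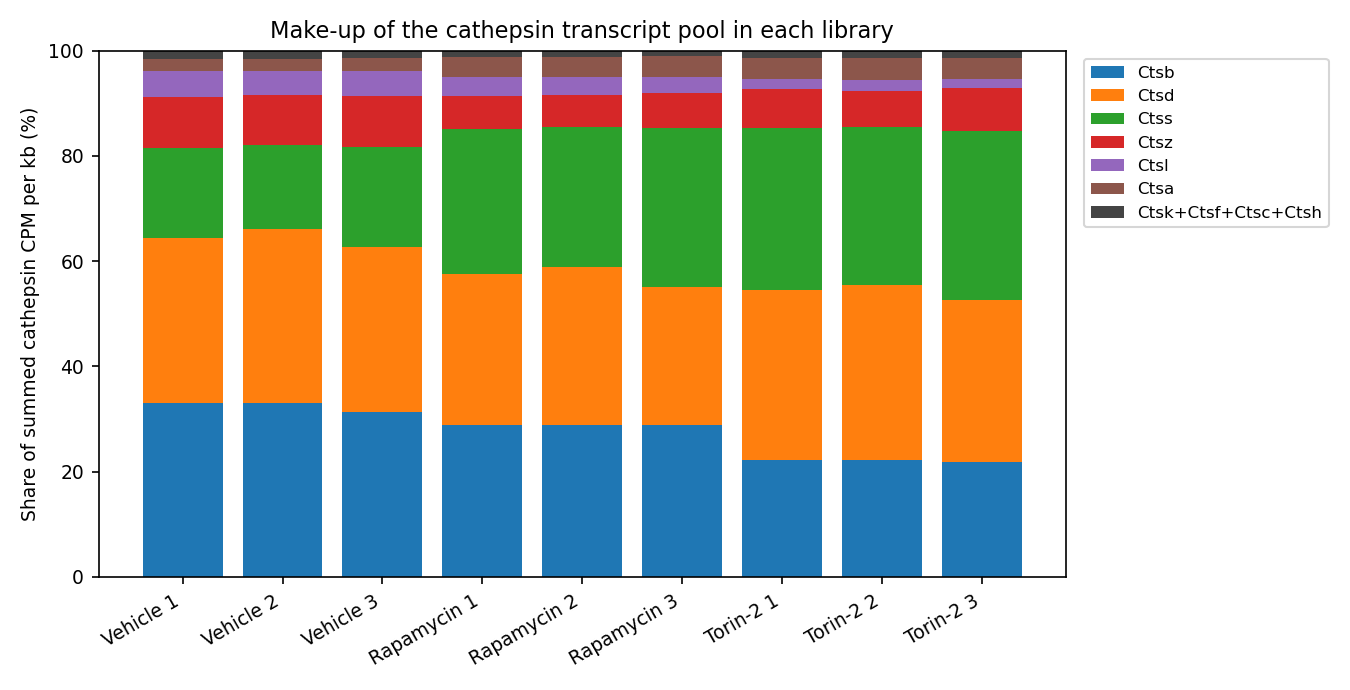
Shares of the cathepsins in the summed CPM per kb of the 10 genes (vertical axis, %), 1 stacked bar per library. Ctsk, Ctsf, Ctsc and Ctsh are drawn together as 1 dark segment. The Ctsb part shrinks from 32.5% with vehicle to 22.0% with Torin-2, and the Ctss part grows from 17.4% with vehicle to 28.1% with rapamycin and 31.0% with Torin-2.

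Torin-2 split the family. Against vehicle 4 cathepsins rose (Ctsf, Ctss, Ctsk and Ctsa), 5 fell (Ctsl, Ctsb, Ctsh, Ctsz and Ctsc), and Ctsd was not called. Of all tested genes 65.4% were called in this comparison, 32.5% higher and 32.9% lower, so 9 called of 10 is to be read against a background in which most genes moved. Groups did not overlap for 9 of the 10 members, beside 70.2% of all genes. The median log2 fold change of the members was -0.37, beside -0.01 for all tested genes, and their median absolute change was 0.61, beside 0.52.

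With rapamycin 7 members were called. Against vehicle 3 rose (Ctsa, Ctss and Ctsf), 4 fell (Ctsk, Ctsz, Ctsh and Ctsl), and Ctsb, Ctsc and Ctsd were not called. The share of all tested genes called was 50.8%, with 24.6% higher and 26.2% lower. Groups did not overlap for 6 members, beside 57.5% of genes, and the median absolute change of 0.37 for the members stood beside 0.35 for all genes. This comparison and the previous one share the vehicle libraries.

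Set directly against rapamycin, Torin-2 gave 2 higher members (Ctsk and Ctsf) and 5 lower ones (Ctsl, Ctsb, Ctsc, Ctsa and Ctsh), beside 48.2% of tested genes called, 24.2% higher and 24.1% lower. The groups did not overlap for 9 members, beside 57.2% of genes, and the median absolute change was 0.52 for the members, beside 0.34. With the replicate number as a block in the edgeR fit, 8 members were lower, since Ctsd (adjusted p = 0.0467), Ctss (0.0273) and Ctsz (0.0224) were then called too, and 54.6% of all genes were called. The block changed no member call in the comparisons against vehicle, in which it called 69.6% (Torin-2) and 56.0% (rapamycin) of all genes.

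**Figure D2:**
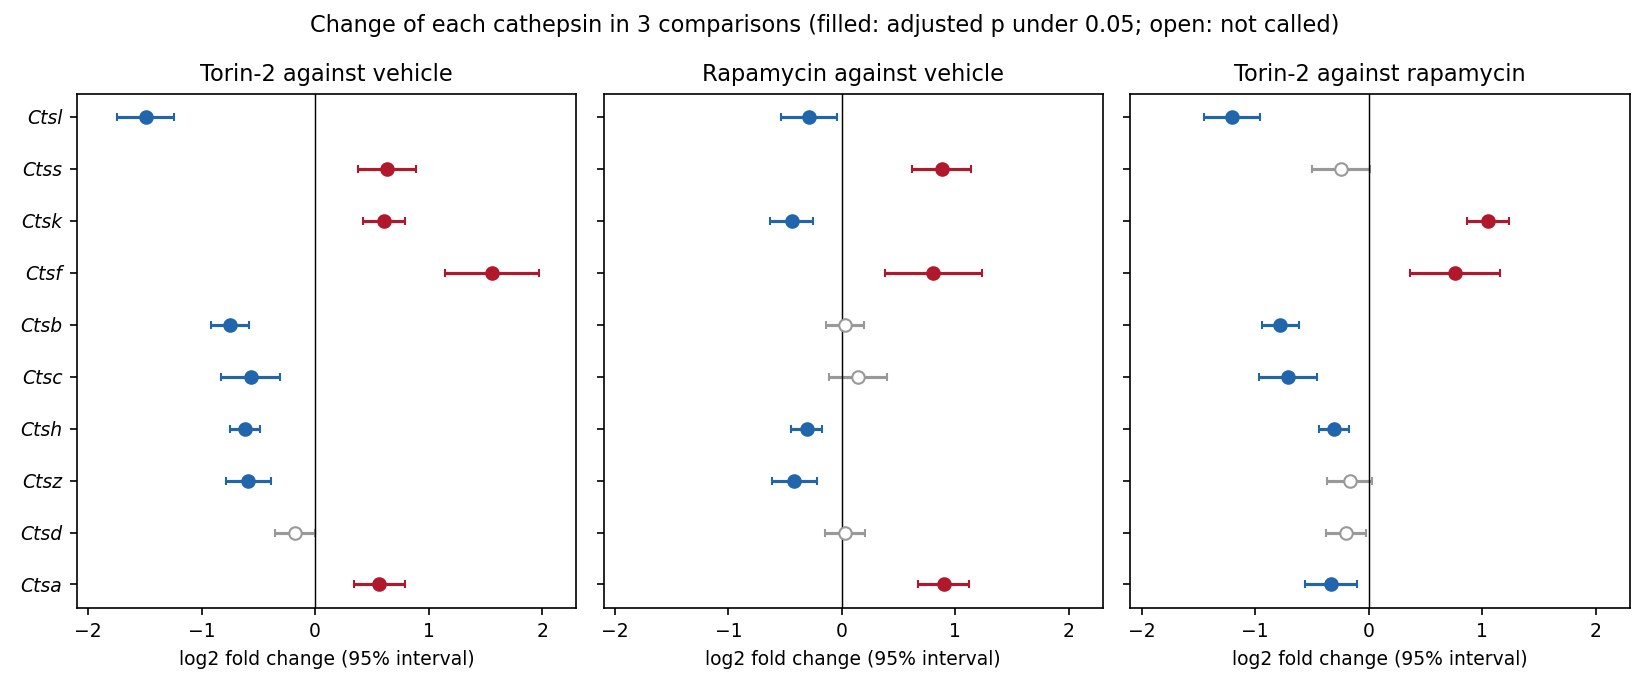
Log2 fold change of each cathepsin (horizontal axis) with its 95% interval in the 3 comparisons, filled where the adjusted p was below 0.05 and open where it was not. Ctsl has the lowest value with Torin-2 against vehicle (-1.49) and Ctsf the highest (1.56), and Ctsk lies above 0 with Torin-2 and below 0 with rapamycin against vehicle.

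Ctsl, an endopeptidase that degrades proteins broadly in the lysosome and trims the invariant chain in some cells, fell furthest with Torin-2. Its vehicle libraries held 3066, 2586 and 3289 CPM (replicates 1, 2 and 3), the rapamycin libraries 2663, 2433 and 2219, and the Torin-2 libraries 1077, 1191 and 909. Every Torin-2 library lay far below all of the others, while the rapamycin range overlapped that of vehicle. Torin-2 lowered Ctsl 2.81-fold against vehicle, a log2 fold change of -1.49 ± 0.11 (SE; edgeR adjusted p = 3.18e-07), and also lowered it against rapamycin (-1.20 ± 0.11, edgeR adjusted p = 5.39e-06). Rapamycin against vehicle gave -0.29 ± 0.11 (edgeR adjusted p = 0.0478). That call was lost in 8 of 17 alternatives, among them those without vehicle replicate 1 (adjusted p = 0.123) or 3 (0.149), rapamycin replicate 2 (0.0959) or 3 (0.146), or Torin-2 replicate 1 (0.0695). Ctsl (ENSMUSG00000021477) is on chromosome 13 from 64359337 to 64370890, minus strand. Its exons share 1742 bases with the antisense gene CT030159.2, which had 5, 3 and 6 counts in all with vehicle, rapamycin and Torin-2.

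Ctss, the cathepsin that stays active at neutral pH and completes invariant chain removal in antigen-presenting cells, moved the other way. It measured 2252, 1887 and 2816 CPM with vehicle, 4240.2, 3949.8 and 4609 with rapamycin, and 3585, 3571 and 3624 with Torin-2. The vehicle libraries were lowest, the rapamycin libraries highest, and none of the groups overlapped. Ctss rose by 0.88 ± 0.12 (log2, SE) with rapamycin (edgeR adjusted p = 8.37e-05) and by 0.63 ± 0.12 with Torin-2 (edgeR adjusted p = 0.000498). The difference between the compounds was -0.25 with a 95% interval of -0.50 to 0.01 (edgeR adjusted p = 0.102). It was called in 5 of 17 alternatives. These were no filter on low counts (edgeR adjusted p = 0.00482), only the 2 groups compared (0.00454) and the replicate block (0.0273). They also include the runs without vehicle replicate 2 (0.0284) or 3 (0.0198). Ctss (ENSMUSG00000038642) is on chromosome 3 from 95526786 to 95556403, plus strand.

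The ratio of Ctss to Ctsl, taken within each library, shows the opposite moves together. It was 0.774 ± 0.0717 with vehicle (0.730 to 0.856), 1.76 ± 0.271 with rapamycin (1.59 to 2.08) and 3.44 ± 0.503 with Torin-2 (3.00 to 3.99). The groups did not overlap, and replicate 3 was the highest of each. With 3 libraries a group, an exact 2-sided permutation test of 1 ratio cannot go below p = 0.1, so the ratios are a description.

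**Figure D3:**
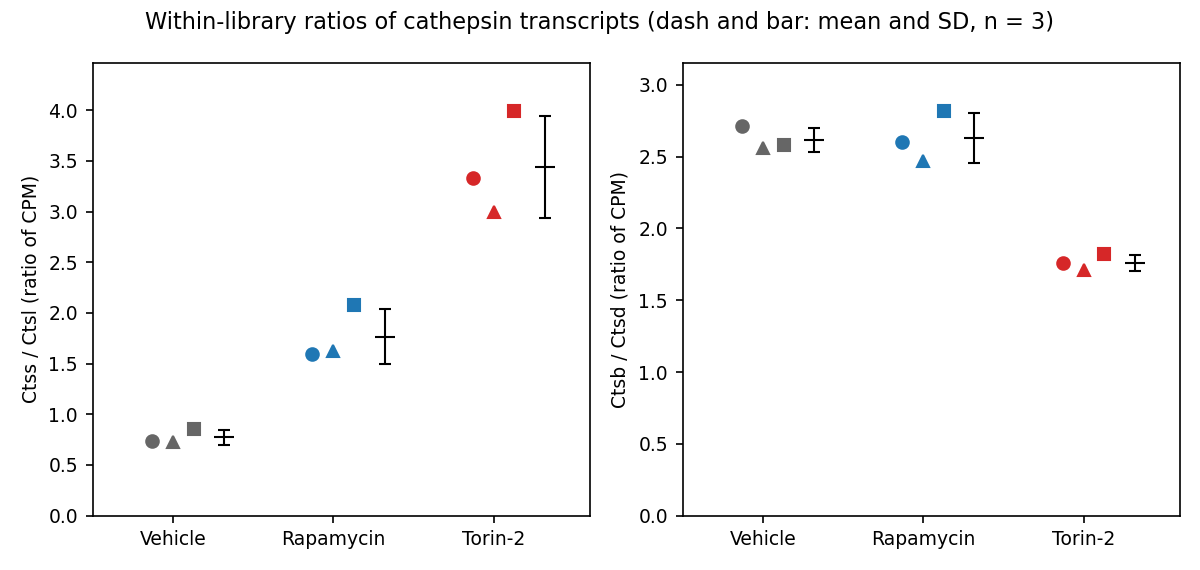
Ratio of Ctss to Ctsl CPM and of Ctsb to Ctsd CPM (vertical axes, no unit) in each library, with circle, triangle and square for replicates 1, 2 and 3 and a dash and bar for mean and SD. The first ratio goes from 0.774 with vehicle to 1.76 with rapamycin and 3.44 with Torin-2, and the second is lower with Torin-2 alone.

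Ctsk, the collagen-cutting cathepsin best known from osteoclasts, was the member that the compounds moved in opposite directions. Its libraries held 38.7, 37.2 and 33.2 CPM with vehicle, 28.1, 24.6 and 27.7 with rapamycin, and 60.5, 51.9 and 54.2 with Torin-2. The rapamycin libraries lay below all vehicle libraries and the Torin-2 libraries above them. Torin-2 raised Ctsk by 0.61 ± 0.08 (log2, SE; edgeR adjusted p = 4.44e-05), rapamycin gave -0.44 ± 0.09 (edgeR adjusted p = 0.00119), and the compounds differed by 1.05 ± 0.09 (edgeR adjusted p = 1.98e-06). Ctsk and Ctss are neighbours on chromosome 3, both on the plus strand with 17423 bases between them (GRCm38), and with rapamycin one fell while the other rose. Ctsk (ENSMUSG00000028111) is on chromosome 3 from 95499256 to 95509362, plus strand.

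The 8 osteoclast markers did not share one direction. They added up to 386 to 549 CPM with vehicle, 341 to 458 with rapamycin and 1037 to 1059 with Torin-2, and 5 of the 8 were tested. Against vehicle 3 rose and 1 fell with each compound, beside 65.4% (Torin-2) and 50.8% (rapamycin) of all tested genes called. The most abundant was Atp6v0d2, a proton pump subunit, at 413, 330.3 and 958 CPM in the mean of vehicle, rapamycin and Torin-2, called higher with Torin-2 and not called with rapamycin (edgeR adjusted p = 0.0598). With rapamycin, where Ctsk fell, the gelatinase gene Mmp9 rose by 1.81 ± 0.25 (log2, SE), the fusion gene Ocstamp by 4.10 ± 0.62 from 9 counts in the vehicle libraries to 137, and the transcription factor gene Nfatc1 by 0.49 ± 0.11, each with an edgeR adjusted p below 0.05. With Torin-2, where Ctsk rose, Mmp9 rose by 2.87 ± 0.24 and Nfatc1 by 0.35 ± 0.11, each with an edgeR adjusted p below 0.05. Ocstamp was not called with Torin-2. The calcitonin receptor gene Calcr and Oscar had 0 counts in all 9 libraries. Acp5, the acid phosphatase of osteoclasts, stood at 25.5 ± 6.37 CPM with vehicle, 12.9 ± 1.71 with rapamycin and 6.52 ± 1.8 with Torin-2. Acp5 was called lower with each compound, the direction of Ctsk for rapamycin and the opposite of Ctsk for Torin-2. The 8 fibroblast markers summed to 10.1 to 41.4, 13.8 to 85.0 and 3.33 to 10.2 CPM in the same order, with none at 0 in all 9 libraries. The part of these markers in the Ctsk values was not tested.

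Ctsf, a cysteine endopeptidase with an unusually long propeptide, was the scarcest member and rose with both compounds. It measured 3.60, 3.25 and 3.51 CPM with vehicle, 6.05, 7.39 and 4.66 with rapamycin, and 10.6, 12.0 and 8.22 with Torin-2. Every rapamycin library was above every vehicle library and below every Torin-2 library. The rise was 1.56 ± 0.19 (log2, SE) with Torin-2 (edgeR adjusted p = 1.53e-05) and 0.80 ± 0.20 with rapamycin (edgeR adjusted p = 0.00472), and Torin-2 stood 0.76 ± 0.18 above rapamycin (edgeR adjusted p = 0.00455). Ctsf (ENSMUSG00000083282) is on chromosome 19 from 4855130 to 4860918, plus strand.

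Ctsb, which cuts as an endopeptidase and as a carboxydipeptidase, was called lower with Torin-2 and not called with rapamycin. The vehicle libraries held 19425, 17357 and 20677 CPM, the rapamycin libraries 19899.8, 18967 and 19682, and the Torin-2 libraries 11495, 11728 and 10916. Rapamycin lay inside the vehicle range, and Torin-2 lay below both without overlap. Torin-2 lowered Ctsb 1.68-fold against vehicle (log2 -0.75 ± 0.08, edgeR adjusted p = 3.12e-06) and gave -0.78 ± 0.08 against rapamycin (edgeR adjusted p = 6.71e-06). Rapamycin against vehicle gave 0.03 with a 95% interval of -0.14 to 0.19 (edgeR adjusted p = 0.788), which leaves room for a change of that size in either direction. Exons of Ctsb share 774 bases with Fdft1, squalene synthase, on the opposite strand, which stood at 13.8 ± 0.772, 17.1 ± 1.35 and 21.7 ± 1.18 CPM with vehicle, rapamycin and Torin-2. Ctsb (ENSMUSG00000021939) is on chromosome 14 from 63122462 to 63145923, plus strand.

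Ctsc, Ctsh and Ctsz are exopeptidases. Ctsc removes dipeptides and activates the serine proteases of granules, Ctsh is an aminopeptidase, and Ctsz a carboxypeptidase. Ctsc held 177 to 205 CPM with vehicle, 174 to 239 with rapamycin and 109.6 to 139 with Torin-2. Ctsh held 341 to 395 CPM with vehicle, 299 to 306 with rapamycin and 236 to 253 with Torin-2. Ctsz held 1192 to 1539.8 CPM with vehicle, 933 to 1091 with rapamycin and 863 to 957 with Torin-2. All 3 were thus lowest with Torin-2, with an overlap with rapamycin for Ctsz, and Ctsh and Ctsz were lower with rapamycin than with vehicle in every library. Ctsc (ENSMUSG00000030560) is on chromosome 7 from 88278085 to 88310888, plus strand. Ctsh (ENSMUSG00000032359) is on chromosome 9 from 90054152 to 90076089, plus strand, and Ctsz (ENSMUSG00000016256) is on chromosome 2 from 174427493 to 174439039, minus strand.

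The falls with Torin-2 against vehicle were -0.57 ± 0.12 for Ctsc (log2, SE; edgeR adjusted p = 0.00109), -0.62 ± 0.06 for Ctsh (2.75e-06) and -0.59 ± 0.09 for Ctsz (0.000118). With rapamycin Ctsh fell by 0.31 ± 0.06 (edgeR adjusted p = 0.00121) and Ctsz by 0.42 ± 0.09 (0.00232). Ctsc gave 0.14 with a 95% interval of -0.11 to 0.40 (edgeR adjusted p = 0.334), and without rapamycin replicate 3, its lowest rapamycin library, 0.26 (adjusted p = 0.0487). Torin-2 against rapamycin gave -0.71 ± 0.12 for Ctsc (edgeR adjusted p = 0.000389) and -0.31 ± 0.06 for Ctsh (0.00137), whereas Ctsz gave -0.17 with an interval of -0.37 to 0.03 (0.1495). Of the granule serine proteases that Ctsc activates, 0 of 8 listed genes had enough counts to be tested.

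Ctsd, the aspartic protease that helps activate other lysosomal enzymes, was not called in any of the 3 comparisons. It measured 7169, 6779 and 8019 CPM with vehicle, 7645, 7692 and 6995 with rapamycin, and 6545, 6862 and 5997 with Torin-2. The Torin-2 libraries overlapped with vehicle replicate 2 and lay below all rapamycin libraries. Differences were -0.18 with a 95% interval of -0.35 to -0.0034 for Torin-2 against vehicle (edgeR adjusted p = 0.0682), 0.02 with -0.15 to 0.20 for rapamycin against vehicle (0.827), and -0.20 with -0.38 to -0.03 for Torin-2 against rapamycin (0.0552). The first was called lower in 4 of 17 alternatives, among them library totals alone (edgeR adjusted p = 0.0320) and DESeq2 (DESeq2 adjusted p = 0.0438). It was also called without vehicle replicate 2 (edgeR adjusted p = 0.0239) or Torin-2 replicate 2 (0.0466). The last was called lower in 9 of 17, among them DESeq2 (DESeq2 adjusted p = 0.0203) and no filter on low counts (edgeR adjusted p = 0.0304). Only the 2 groups compared (0.0222) and the replicate block (0.0467) called it too. So did leaving out vehicle replicate 2 (0.0336) or 3 (0.0297), rapamycin replicate 3 (0.0333) or Torin-2 replicate 2 (0.0461). The Ctsb to Ctsd ratio of CPM was 2.62 ± 0.0814 with vehicle, 2.63 ± 0.175 with rapamycin and 1.76 ± 0.0557 with Torin-2, and the Torin-2 libraries lay below all others. Ctsd (ENSMUSG00000007891) is on chromosome 7 from 142375911 to 142388038, minus strand. Of its exon length, 808 bases (34.4%) are shared with the gene model AC034099.1 on the same strand, which had 0 counts in all 9 libraries.

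Ctsa, also called protective protein because it keeps the sialidase Neu1 and the beta-galactosidase Glb1 stable, rose with both compounds. The libraries held 1089, 934 and 1332 CPM with vehicle, 2126, 2000.1 and 2122 with rapamycin, and 1624, 1726 and 1612 with Torin-2. The groups did not overlap, and rapamycin was highest. Ctsa rose by 0.90 ± 0.10 (log2, SE) with rapamycin (edgeR adjusted p = 2.84e-05) and by 0.56 ± 0.10 with Torin-2 (edgeR adjusted p = 0.000439). Torin-2 against rapamycin gave -0.33 ± 0.10 (edgeR adjusted p = 0.0191), a call lost without rapamycin replicate 1 (adjusted p = 0.0518), Torin-2 replicate 1 (0.0620) or Torin-2 replicate 3 (0.0613). Ctsa (ENSMUSG00000017760) is on chromosome 2 from 164832873 to 164841032, plus strand.

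Ctsa overlaps Pltp, the phospholipid transfer protein gene, which lies on the opposite strand. The shared exon bases number 495, or 10.5% of the Ctsa exon length. Pltp rose by 2.94 ± 0.13 (log2, SE) with rapamycin (edgeR adjusted p = 2.1e-08) and by 1.83 ± 0.12 with Torin-2 (edgeR adjusted p = 9.6e-08), from 85.5 ± 18.1 CPM with vehicle to 657 ± 30.3 and 305 ± 16.8. Reads in the shared bases cannot be told apart because the strand setting is not known, and Ctsa and Pltp both stood highest with rapamycin. Ctsa also shares 324 exon bases with Neurl2, at 6.39 to 10.8 CPM in the group means.

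**Figure D4:**
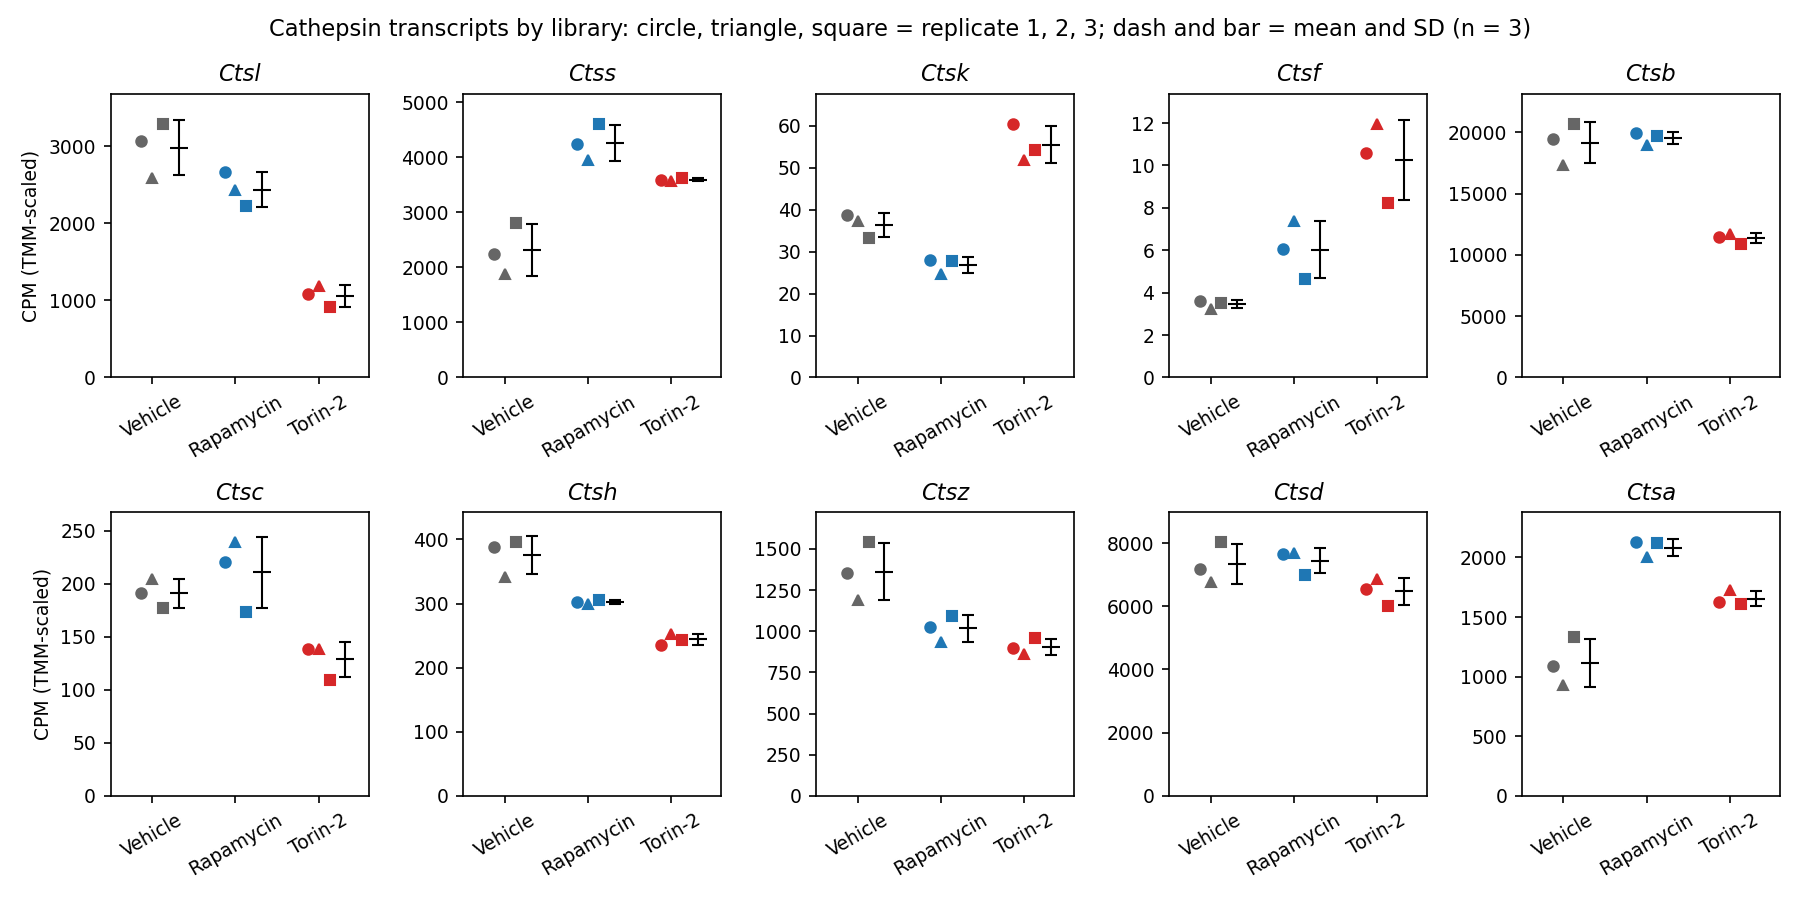
CPM of each cathepsin in each library (vertical axes start at 0 and differ between panels), with circle, triangle and square for replicates 1, 2 and 3 and a dash and bar for mean and SD (n = 3). The Torin-2 points of Ctsl and Ctsb lie below all others, Ctss and Ctsa stand highest with rapamycin, and Ctsk falls with rapamycin and rises with Torin-2.

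The promoter windows of the members that hold the MiT/TFE motif CACGTG are shown because those members rose, fell or were not called in the same cells. RefSeq promoter windows (GRCm38.p6) of 250 bases before to 50 bases after the start site were found for 8 members, with 9 windows in all. CACGTG, which reads the same on both strands, was in 4 of the 9, beside 7.15% of 32851 windows of all genes. They belong to Ctsa, whose other window lacked it, and to Ctsd, Ctsf and Ctsl. The first base of each match, counted from the start site, lay at -12 and 5 in Ctsa, -245 and -98 in Ctsd, -79 in Ctsf and -236 in Ctsl. The RefSeq start site of a window need not be the 5′ end of the gene. The windows of Ctsa and Ctsl printed below lie inside the GENCODE spans given above, as does the match at -98 in Ctsd. Each window is printed 5′ to 3′ on the gene's strand, to 30 bases after the start site, with CACGTG in capitals.
Ctsa, chr2:164833523-164833802, plus strand: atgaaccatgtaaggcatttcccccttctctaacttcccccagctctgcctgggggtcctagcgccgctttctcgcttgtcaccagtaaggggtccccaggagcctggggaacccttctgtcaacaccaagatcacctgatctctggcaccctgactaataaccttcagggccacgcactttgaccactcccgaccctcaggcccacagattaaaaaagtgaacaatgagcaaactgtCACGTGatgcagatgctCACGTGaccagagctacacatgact
Ctsd, chr7:142387798-142388077, minus strand: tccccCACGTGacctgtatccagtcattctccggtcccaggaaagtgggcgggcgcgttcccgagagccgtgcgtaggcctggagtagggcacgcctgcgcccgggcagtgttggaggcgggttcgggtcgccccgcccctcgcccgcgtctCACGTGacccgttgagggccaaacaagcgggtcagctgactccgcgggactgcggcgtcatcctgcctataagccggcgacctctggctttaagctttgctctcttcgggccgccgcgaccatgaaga
Ctsf, chr19:4854915-4855194, plus strand: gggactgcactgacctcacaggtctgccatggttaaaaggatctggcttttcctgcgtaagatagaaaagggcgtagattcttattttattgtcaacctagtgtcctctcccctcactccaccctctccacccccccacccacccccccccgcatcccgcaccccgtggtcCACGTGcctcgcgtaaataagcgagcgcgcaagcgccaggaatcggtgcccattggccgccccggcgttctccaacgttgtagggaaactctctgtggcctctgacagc
Ctsl, chr13:64370491-64370770, minus strand: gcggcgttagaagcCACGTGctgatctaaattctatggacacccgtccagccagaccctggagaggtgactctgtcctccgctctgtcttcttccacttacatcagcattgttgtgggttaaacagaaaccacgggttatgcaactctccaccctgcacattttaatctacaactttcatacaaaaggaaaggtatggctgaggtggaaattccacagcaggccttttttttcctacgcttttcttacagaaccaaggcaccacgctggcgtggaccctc

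With Torin-2 against vehicle Ctsa and Ctsf of these 4 rose, Ctsl fell and Ctsd was not called. The matches of Ctsa and Ctsd extend to TCACGTG on at least one strand, a form found in 3.77% of all windows, and those of Ctsf and Ctsl do not. The windows of Ctsc, Ctsk, Ctss and Ctsz held no CACGTG. For the Ctsk window alone, the bases after the start site were not found near the start of a GENCODE transcript of the gene. The letters GAGGAAGT, a core bound by the myeloid factor PU.1, were found on either strand in the windows of Ctsc and Ctss, beside 3.20% of all windows, and of these genes Ctsc fell and Ctss rose with Torin-2. The part of these motifs in the changes of the cathepsins was not tested.

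Most genes of the MiT/TFE factors rose. Of 4 tested, Mitf, Tfe3 and Tfeb were higher with each compound against vehicle and Tfec was not called. Without rapamycin replicate 3, however, 1 gene of the list was lower with rapamycin. Among all tested genes 32.5% were called higher with Torin-2 and 24.6% with rapamycin. Mitf rose by 1.84 ± 0.07 (log2, SE) with Torin-2 and by 1.30 ± 0.07 with rapamycin, and Tfe3 by 1.10 ± 0.08 and 0.80 ± 0.08 in the same order. The median of the list was 1.05 with Torin-2 and 0.80 with rapamycin, beside -0.01 and 0.00 for all tested genes.

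Receptors and adaptors that bring cathepsins to the lysosome changed in both directions. Of 20 sorting genes, 5 rose and 9 fell with Torin-2 against vehicle, and 6 rose and 9 fell with rapamycin. These and the list counts that follow stand beside 65.4% (Torin-2) and 50.8% (rapamycin) of all tested genes called, so calls in both directions are also what the table as a whole shows. The median of the sorting genes was -0.12 with Torin-2 and -0.10 with rapamycin. The mannose 6-phosphate receptors parted, with Igf2r up by 1.37 ± 0.10 (log2, SE) with Torin-2 and 0.88 ± 0.10 with rapamycin, and M6pr at -0.51 ± 0.06 and -0.22 ± 0.06. Ap1b1, a subunit of the adaptor that packs these receptors into vesicles, fell most with Torin-2 (-1.42 ± 0.09). Sort1, the alternative receptor sortilin, fell with Torin-2 (-0.88 ± 0.09) and rose with rapamycin (0.43 ± 0.09). All of these changes had an edgeR adjusted p below 0.05.

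The list of 15 protease inhibitors holds cystatins and serpins, and 8 of the genes were tested. Not every serpin of the list inhibits the cathepsins studied here, so its counts describe the list and not inhibitors of these cathepsins. Cst3, cystatin C, a secreted inhibitor of cysteine cathepsins, stood at 620 ± 47.5 CPM with vehicle, 1415 ± 109 with rapamycin and 738 ± 50.6 with Torin-2. It rose by 1.19 ± 0.08 (log2, SE) with rapamycin (edgeR adjusted p = 4.95e-07) and gave -0.94 ± 0.08 for Torin-2 against rapamycin. Cstb, the cytosolic cystatin B, fell by 0.24 ± 0.06 with rapamycin (edgeR adjusted p = 0.00592). With rapamycin 4 of the 8 rose and 1 fell, or 2 fell without rapamycin replicate 3. With Torin-2 3 rose (Cst3, Cstb and Serpinb6a) and 1 fell (Serpinb9), and 5 rose and 2 fell with the replicate block. That count of higher inhibitors was 1 without vehicle replicate 1, vehicle replicate 2 or Torin-2 replicate 2, and 5 without vehicle replicate 3, and the count of lower ones was 2 without rapamycin replicate 3.

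Of 7 other lysosomal peptidases, 3 rose and 2 fell with Torin-2 and 4 rose and 0 fell with rapamycin. Among all tested genes 32.5% were called higher and 32.9% lower with Torin-2, and 24.6% higher and 26.2% lower with rapamycin. The median log2 fold change of these peptidases was 0.04 with Torin-2 and 0.43 with rapamycin, beside -0.01 and 0.00 for all tested genes. Dpp7, a dipeptidyl peptidase, rose by 1.42 ± 0.11 (log2, SE) with Torin-2 and 0.75 ± 0.11 with rapamycin. Tpp1, a tripeptidyl peptidase, rose by 0.37 ± 0.06 with Torin-2 and 0.46 ± 0.06 with rapamycin. Each of these changes had an edgeR adjusted p below 0.05. The legumain gene Lgmn, whose product cleaves cathepsins to their mature forms, gave -0.19 ± 0.07 with Torin-2 (edgeR adjusted p = 0.0312), a call lost without vehicle replicate 1 (0.0989) or 3 (0.113) or Torin-2 replicate 1 (0.0848), 2 (0.0713) or 3 (0.0632). The count of 2 that fell (Lgmn and Cpq) was 0 or 1 without either vehicle replicate 1 or 3 or any Torin-2 library. The 8 other listed cathepsin genes were mostly silent. Ctsg, Ctsj, Ctsm, Ctsq and Ctsr had 0 counts in all 9 libraries, and Ctso, the 1 gene at 1 CPM or more, rose with Torin-2 from 67.3 ± 4.03 to 84.4 ± 0.233 CPM.

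Of 8 genes for proteins that cathepsins stabilise or cut, or that partner those, 2 rose and 3 fell with Torin-2 against vehicle. With rapamycin 3 of them rose and 2 fell. Neu1, the sialidase held by Ctsa, fell by 0.67 ± 0.05 (log2, SE) with Torin-2 and by 0.20 ± 0.05 with rapamycin while Ctsa rose, and Glb1 was not called in either comparison. With the replicate block Glb1 was called with Torin-2 (adjusted p = 0.045). Tlr7, an endosomal receptor that cathepsins cut to its active form, rose by 1.69 ± 0.07 with Torin-2 and 0.71 ± 0.07 with rapamycin. Grn, progranulin, which cathepsins process to granulins, fell by 0.42 ± 0.075 with Torin-2. Of 6 tested genes of the invariant chain and MHC class II, 3 fell and 0 rose with Torin-2, and 1 fell and 2 rose with rapamycin. Cd74, the invariant chain that Ctss trims, stood at 3.01 CPM with Torin-2, 3.99 with vehicle and 7.53 with rapamycin in the mean. Cd74 was called higher with rapamycin than with vehicle (0.92 ± 0.34, edgeR adjusted p = 0.0405), with overlapping ranges. It was called lower with Torin-2 than with rapamycin (-1.31 ± 0.35, edgeR adjusted p = 0.00887) and not called with Torin-2 against vehicle. Ciita had 0 counts in all 9 libraries. The fold changes named here for Neu1, Tlr7 and Grn had an edgeR adjusted p below 0.05.

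**Figure D5:**
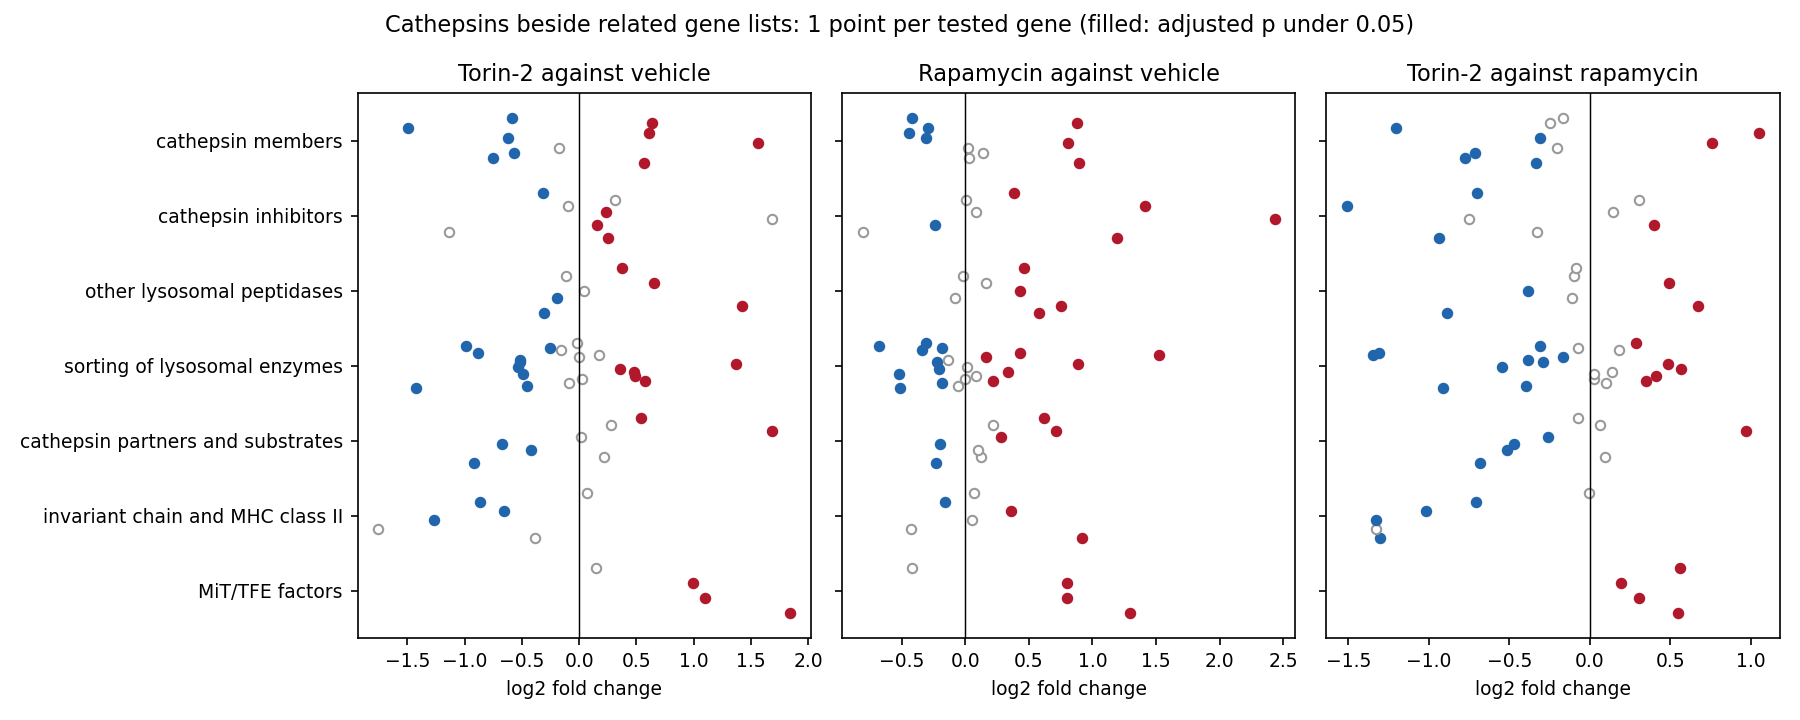
Log2 fold change (horizontal axis, its range differs between panels) of every tested gene of 7 lists, 1 point per gene, filled where the adjusted p was below 0.05 (red higher, blue lower) and open where it was not. The cathepsins spread to both sides of 0 with Torin-2, as the sorting genes do, while 3 of the 4 MiT/TFE genes are filled on the higher side against vehicle with each compound.

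Genes with the profile most like that of a cathepsin were found by the root mean square difference of mean-centred log2 CPM over the 9 libraries, among 7560 genes of at least 10 CPM. For Ctsb these were Anxa5, an annexin (0.0429), and Gsn, gelsolin (0.0445). For Ctsd they were Tfip11 (0.0431) and Glmp, a lysosomal membrane protein (0.0536). Ctsf had Dpp7 and Arsk, both of the lysosome, at 0.164 each, the least close match of the 10. Ctsl had S100a11 (0.107) and Ctsk had Ttyh2 (0.0862). Eif3f, a translation initiation subunit, was second for both Ctsa (0.0742) and Ctss (0.0856), whose first genes were Slc2a1, a glucose transporter (0.0689), and Trim25 (0.0837).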

How the data were processed

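RNA of 9 cultures was sequenced as paired-end reads of 100 bp. The authors deposited unnormalised counts for each gene and library. Software named in the submitters' processing notes is STAR 2.5.2a, bcl2fastq and FastQC, and the builds named are GRCm38.p6 and mm10. How reads were counted, with which strand setting and annotation release, is not given in the sources used here. Reads of overlapping genes can therefore be shared or lost.

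In R 4.3.3, edgeR 4.0.16 (filterByExpr by group, TMM, 1 quasi-likelihood fit of 9 libraries in 3 groups, no covariate) tested 3 contrasts 2-sided, with Benjamini-Hochberg adjustment over 12511 genes; DESeq2 1.42.0 served as an alternative. The fit was run on simulated data in which few genes changed, in the Torin-2 group alone, with no replicate effect. In the real data 65.4% of genes were called with Torin-2 against vehicle, a case that the simulation does not cover. Exon lengths, positions and overlaps come from GENCODE M21 (GRCm38), in which 53237 of 53342 identifiers were found, and promoters from RefSeq. Depth per library was 16116666 to 24044329 counts, and the common biological coefficient of variation was 9.96%, so Ctsf at 3.25 to 12.0 CPM is measured least well. Changes are relative to other genes.

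The members are matched by symbol alone, but they and the lists were chosen with earlier results of these data known. Named genes are all members, genes overlapping their exons, up to 3 risers and 3 fallers per list and comparison (mean of at least 1 CPM), and the 2 genes of nearest profile. Genes named outside this rule (M6pr, Glb1, the genes with 0 counts and the markers) were picked for their role after values were seen.

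Same-numbered libraries of different groups deviated together from their group means (r = 0.168 to 0.5 for 9 pairs, -0.358 to 0.162 for 18 others). The numbers were therefore read as pairing the libraries, from this correlation and not from the labels. Replicates 1 and 2 are hardly separated by it. Vehicle replicate 1 had r = 0.174 with Torin-2 replicate 1 and 0.152 with Torin-2 replicate 2. The main fit did not use the pairing. Alternatives were other scalings, filters, DESeq2, the 2 groups alone, the replicate block and libraries left out.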

Additional observations from a re-analysis of the deposited data

How the results depend on the processing

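Of the 30 cathepsin tests (10 genes, 3 comparisons), 21 kept their direction and side of the threshold in every alternative run, 17 for each gene and 16 for Ctsf, which the filter at a mean of 10 CPM removes. With that filter 1 cathepsin in place of 2 was higher with Torin-2 than with rapamycin, because Ctsf was not tested. The number lower with Torin-2 than with rapamycin was 5, and 8 with the replicate block and 8 with only the libraries of the groups compared. In that comparison DESeq2 also called Ctsd lower, and the fit with no filter on low counts called Ctsd and Ctss lower. The replicate block changed no other cathepsin call. Leaving out libraries gave 4 to 7 for that count, 5 to 6 for those lower and 4 for those higher with Torin-2 against vehicle, 3 to 4 each for higher and lower with rapamycin against vehicle, and 2 for those higher with Torin-2 than with rapamycin. Changes of Ctsb and Ctsd with rapamycin, not called in any setting, reversed sign with library totals alone (-0.067 and -0.070), with the filter at 10 CPM (-0.0033 and -0.0055) and without vehicle replicate 2 (-0.039 and -0.029; 0.085 and 0.093 at most with another single library left out), and the cause was not tested. Library totals alone gave 6 cathepsins lower with Torin-2 against vehicle, and with DESeq2 Ctsd was called lower there too. The fall of Ctsl with rapamycin against vehicle was not called with DESeq2 size factors in edgeR (3 lower) or with only the 2 groups compared. With library totals alone the share of higher calls with rapamycin against vehicle was 37.4% in place of 48.5%. No median over all genes moved by more than 0.096 with either scaling. Counts of the related lists that rest on few genes moved by more than 1.5 times in some settings, and those printed above carry the libraries concerned. The exceptions are the rapamycin counts of the partner list and the MHC class II list, for which no library is named.

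With 3 libraries a group, small differences such as those of Ctsd and Ctsz between the compounds sit near the threshold, and the intervals printed beside them give the sizes that remain possible. Transcript levels were measured; protein amounts and protease activity were not analysed here.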
